A study of Mus musculus with 20 samples.

Results

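The 32 genes described here comprise the enzymes of glycolysis from hexokinase to lactate dehydrogenase and a group of genes known to respond to low oxygen. They were taken as a listed set, by gene symbol, and all 32 were found once among the 53379 gene identifiers and were among the 15835 genes that passed the filter on low counts. By role, 4 encode subunits of hypoxia-inducible factor (HIF) or the prolyl hydroxylases that mark it for destruction, 7 are other HIF targets, 12 encode enzymes and regulators of upper glycolysis, 5 encode lower glycolytic enzymes and 4 act on pyruvate.

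RNA-seq had been done on lineage-negative (Lin-) hematopoietic progenitor cells from fetal liver that had been infected with a retroviral (MSCV) vector and grown for 3 days. There were 5 groups with 4 libraries each. In 4 groups the cells lacked the -77 enhancer of Gata2, a distal element on which Gata2 transcription in progenitors depends; these carried a vector for the GATA2 variant R307W (KO + R307W), for the variant T354M (KO + T354M), for GATA2 (KO + GATA2) or the control vector (KO control). In the fifth group, cells of wild-type mice carried the control vector (WT control). For the KO + GATA2, KO control and WT control groups the labels give C57BL/6J embryos of E14.5 and a medium with interleukin 3 and stem cell factor; the labels of the R307W and T354M libraries state neither age, strain nor medium, so a difference in handling cannot be told apart from the variant in comparisons of these libraries with the other groups. R307W and T354M are single amino acid substitutions of this zinc finger transcription factor. The labels do not say whether the replicates of a group came from separate animals or cultures, so p-values measure the spread between libraries, which may be technical.

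Libraries held 22330475 to 33245876 expected counts, of which the mitochondrial ribosomal RNA mt-Rnr2 took 17.9 to 24.6%. Values are given as CPM (counts scaled to a fixed library total) after TMM scaling, with mean ± SD over 4 libraries, and differences as log2 ± SE from edgeR. A gene was called at a Benjamini-Hochberg adjusted p under 0.05 over all 15835 genes. Gata2 itself was at 4.72 to 7.67 CPM in KO control and 31.5 to 53.0 CPM in WT control, and at 39.5 to 89.5 CPM with R307W, 33.6 to 73.8 CPM with T354M and 42.9 to 132 CPM with GATA2; the counts do not separate vector from endogenous transcripts. Transcripts of the cell-type marker lists were present in all groups after the culture that followed the Lin- selection. The neutrophil list, which holds Elane and Mpo as well as Camp and Ngp, summed to at least 2890 CPM in every library. This sum does not tell precursors from mature cells. The hepatocyte list, led by Afp, Trf and Alb, summed to 164 to 3280 CPM. In bulk RNA, fewer cells of a type and less RNA per cell cannot be told apart.

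Glycolysis splits glucose into pyruvate and yields ATP without oxygen. Hexokinase traps glucose in the cell, phosphofructokinase commits it to the pathway, pyruvate kinase makes the last ATP, and lactate dehydrogenase turns pyruvate into lactate. HIF couples the pathway to oxygen supply: when oxygen is low, prolyl hydroxylases no longer mark HIF1A and EPAS1 (HIF-2α) for degradation, and the stabilised factor binds hypoxia response elements beside most of these enzyme genes. Several steps are encoded by more than 1 gene, and the isoenzymes are used differently by blood lineages.

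The core of a hypoxia response element, RCGTG in the usual letters, was searched as ACGTG and GCGTG on both strands in the RefSeq promoter windows, which run from 250 bases before to 50 bases after a start site (GRCm38.p6). A CACGTG palindrome counts as a pair of matches that overlap. Promoters were listed for 30 of the 32 genes, and 28 of these 30 had a match in at least 1 window. By window, 36 of 44 (81.8%) had a match, against 43.8% of 32851 windows of all genes. GATA motifs (AGATAA, or with G as the last base, and the same with T in first place, on both strands) were in 8 of 44 windows (18.2%) and in 29.8% of all windows. A match is a run of letters and not a binding site shown by these data, and windows of the same gene can overlap. The windows of these genes and of all genes were not matched for base content. The genes were listed for known roles in glycolysis or low oxygen, so these shares are no test of that listing. Printed below are promoters of Bnip3, P4ha2 and Ldha, picked from the 7 genes whose RNAs were highest in replicate 1 of all 4 enhancer-null groups. Also printed is that of Hk1, which differed most between KO and WT control among the glycolytic enzymes of the 32 genes. They lie at chr7:138909457-138909756 (minus strand), chr11:54100674-54100973 (plus), chr7:46845554-46845853 (plus) and chr10:62340372-62340671 (minus), are written 5′ to 3′ on the gene's strand, and have the core motif in capitals.
Bnip3: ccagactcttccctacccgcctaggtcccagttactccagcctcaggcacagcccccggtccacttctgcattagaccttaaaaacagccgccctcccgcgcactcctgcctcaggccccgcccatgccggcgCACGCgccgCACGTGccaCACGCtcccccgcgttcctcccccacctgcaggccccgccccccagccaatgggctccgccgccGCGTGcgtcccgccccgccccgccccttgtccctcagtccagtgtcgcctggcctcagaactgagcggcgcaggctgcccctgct
P4ha2: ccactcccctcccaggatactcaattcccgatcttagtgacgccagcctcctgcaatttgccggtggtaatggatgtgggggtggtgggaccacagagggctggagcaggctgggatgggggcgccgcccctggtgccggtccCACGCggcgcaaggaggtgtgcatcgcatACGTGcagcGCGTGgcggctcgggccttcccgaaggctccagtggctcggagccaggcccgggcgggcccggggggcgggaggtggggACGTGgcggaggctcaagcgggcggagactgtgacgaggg
Ldha: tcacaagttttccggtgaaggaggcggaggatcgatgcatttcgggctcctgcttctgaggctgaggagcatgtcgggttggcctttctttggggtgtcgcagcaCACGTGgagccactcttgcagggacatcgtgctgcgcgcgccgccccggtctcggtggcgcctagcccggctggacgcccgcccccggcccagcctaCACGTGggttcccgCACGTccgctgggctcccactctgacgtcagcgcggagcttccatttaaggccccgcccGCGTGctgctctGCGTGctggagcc
Hk1: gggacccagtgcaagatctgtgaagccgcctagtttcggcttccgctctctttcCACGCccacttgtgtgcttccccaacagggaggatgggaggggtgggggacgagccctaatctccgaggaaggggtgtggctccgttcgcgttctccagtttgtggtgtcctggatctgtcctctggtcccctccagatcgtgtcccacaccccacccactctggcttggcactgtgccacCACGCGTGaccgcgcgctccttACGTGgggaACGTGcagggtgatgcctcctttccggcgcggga

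The Bnip3 window had 5 matches and that of P4ha2 had 4. The Ldha window had 7 and that of Hk1 had 5, while the second window listed for Hk1, at chr10:62379859-62380158, had no match. A second Ldha window had 2. Among the unprinted genes that were also highest in replicate 1, P4ha1 had 3 matches and Ankrd37 had 4. Pdk1 had 2 in 1 window and none in another, and Tpi1 had none.

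Loss of the enhancer was examined first, in KO control against WT control. Of the 32 genes, 5 were called higher, against 20.1% of all genes tested, and 13 lower, against 23.2% of all genes. The median log2 difference was -0.31, against -0.05 over all genes. Of all called genes 46.4% were higher; with limma on log2(TPM + 1) this share was 58.6%. The genes listed as other HIF targets had calls only on the lower side, upper glycolysis was divided by isoenzyme, and lower glycolysis had calls on the higher side. Enzyme genes that HIF also binds are counted under their own roles.

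Among the genes listed as other HIF targets, 5 of 7 fell and the remaining 2 were not called. P4ha2, a collagen prolyl 4-hydroxylase subunit, was at 0.903, 0.712, 0.481 and 0.426 CPM in KO control and at 2.61, 2.36, 2.82 and 3.93 CPM in WT control. Every KO library was below every WT library, and the log2 difference was -2.21 ± 0.47 (edgeR, adjusted p = 0.000813). Bnip3, a mitophagy receptor, was at 36.3, 30.7, 27.5 and 22.6 CPM in KO control, against 40.3, 72.2, 139 and 114 CPM in WT control. Genes that share a near-identical stretch with Bnip3 held 1.08 to 15.1% of the summed counts, the largest part in a long noncoding RNA gene. The groups did not overlap, but WT replicate 1 was close to the highest KO library; the difference was -1.64 ± 0.45 (edgeR, adjusted p = 0.00595). Vegfa, the angiogenic growth factor, was at 9.59, 10.5, 8.04 and 8.21 CPM in KO control, against 20.8, 17.5, 23.9 and 30.4 CPM in WT control (-1.35 ± 0.20, edgeR adjusted p = 2.91e-05). Bnip3l, the mitophagy receptor that clears mitochondria from maturing red cells, averaged 93.6 ± 5.30 CPM in KO control and 183 ± 35.0 CPM in WT control, again without overlap. Ddit4, an inhibitor of mTORC1, averaged 2.68 ± 0.363 CPM in KO control and 5.28 ± 1.09 CPM in WT control. P4ha1 and Ankrd37 differed by -0.36 ± 0.22 and -0.96 ± 0.62 and were not called.

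The genes upstream of these targets divided. Hif1a, the oxygen-regulated subunit present in most cells, was higher, at 124, 146, 151 and 129 CPM in KO control, against 102, 123, 103 and 71.2 CPM in WT control. Every KO library exceeded every WT library, though KO replicate 1 and WT replicate 2 were close, and the difference was 0.46 ± 0.11 (edgeR, adjusted p = 0.00252). Epas1 was near the detection limit, at 0.602, 0.419, 0.917 and 0.533 CPM in KO control and 1.83, 1.08, 0.657 and 2.46 CPM in WT control. It was called lower (-1.30 ± 0.35, edgeR adjusted p = 0.00592), although the groups overlapped. The prolyl hydroxylase genes Egln1 and Egln3 were not called.

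In upper glycolysis 2 of 12 genes rose and 6 fell. Hk1, the constitutive hexokinase that binds mitochondria, was at 35.7, 35.6, 31.8 and 42.2 CPM in KO control, against 160, 99.1, 132 and 148 CPM in WT control. The lowest WT library was far above the highest KO library, and the difference was -1.89 ± 0.18 (edgeR, adjusted p = 1.75e-07), the lowest p among the 32 genes. Hk2, the inducible hexokinase, went the other way, with 99.2, 101, 105 and 104 CPM in KO control against 73.9, 61.3, 78.3 and 82.8 CPM in WT control (0.46 ± 0.13, edgeR adjusted p = 0.00713). Hk3, a hexokinase of myeloid cells, was at 43.5, 42.2, 38.8 and 53.8 CPM in KO control and 46.6, 44.7, 31.3 and 44.2 CPM in WT control, with overlapping groups and no call.

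Phosphofructokinase showed a like division between its isoenzymes. Pfkm, the muscle form, was at 14.7, 14.2, 12.4 and 13.4 CPM in KO control, against 42.3, 28.9, 42.2 and 42.0 CPM in WT control (-1.51 ± 0.16, edgeR adjusted p = 6.27e-07). Pfkp, the platelet form, was at 124, 129, 111 and 109 CPM in KO control, against 68.7, 81.3, 99.1 and 103 CPM in WT control (0.42 ± 0.13, edgeR adjusted p = 0.0125). Both comparisons were without overlap, though for Pfkp the closest libraries were 109 and 103 CPM. Pfkp overlaps the opposite-strand gene Pitrm1, whose transcripts held 43.0 to 75.6% of the reads of the pair, and no source used here states that strand was used in counting. Pfkl, the liver form, averaged 71.7 ± 11.1 CPM in KO control and 108 ± 32.7 CPM in WT control and was called lower with overlapping groups. Aldoc, an aldolase of brain and a HIF target, was at 2.03, 1.38, 1.53 and 1.39 CPM in KO control and 2.39, 3.14, 6.48 and 6.32 CPM in WT control (-1.53 ± 0.44, edgeR adjusted p = 0.0077). Tpi1 and Gpi1 fell less, by 0.50 and 0.39 on the log2 scale. The 5 genes that share a near-identical stretch with Gpi1 held 11.9 to 20.7% of the summed counts, the largest part in Wdr33, another protein-coding gene. This share therefore includes expression of other genes, and its bearing on the Gpi1 level was not tested. The regulators Pfkfb3 and Pfkfb4, which set the level of the activator fructose 2,6-bisphosphate, and Aldoa, the main aldolase, were not called.

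Shares of each enzyme's summed TPM, a unit per gene length, compare the isoenzyme genes at the level of RNA. Protein and enzyme activity were not measured. Hk1 took 20.2, 19.3, 17.8 and 19.2% of hexokinase TPM in KO control, against 58.5, 49.8, 55.8 and 54.8% in WT control. Hk2 took 55.8 ± 3.21% in KO control and 28.9 ± 2.45% in WT control, and Hk3 took 25.1 ± 2.45% and 16.4 ± 2.85% in the same order of groups. Pfkm took 7.34 ± 0.197% of phosphofructokinase TPM in KO control and 18.7 ± 2.45% in WT control, and Pfkp took 58.3 ± 4.02% in KO control and 38.5 ± 6.14% in WT control. The phosphofructokinase shares carry the limit given above for Pfkp and Pitrm1. The hexokinase gene with the largest RNA share was Hk2 in KO control and Hk1 in WT control. With 4 libraries a group, the exact two-sided permutation test cannot go below p = 0.0286, which these 5 shares reached. Adjusted over the 56 share tests made (14 genes in 4 comparisons) it was 0.0762, so no share passed, although 21 of the 56 had an unadjusted p under 0.05. With this smallest p, a share could pass only if most of the 56 reached it too. That none passed therefore does not show that the shares were alike.

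**Figure D1:**
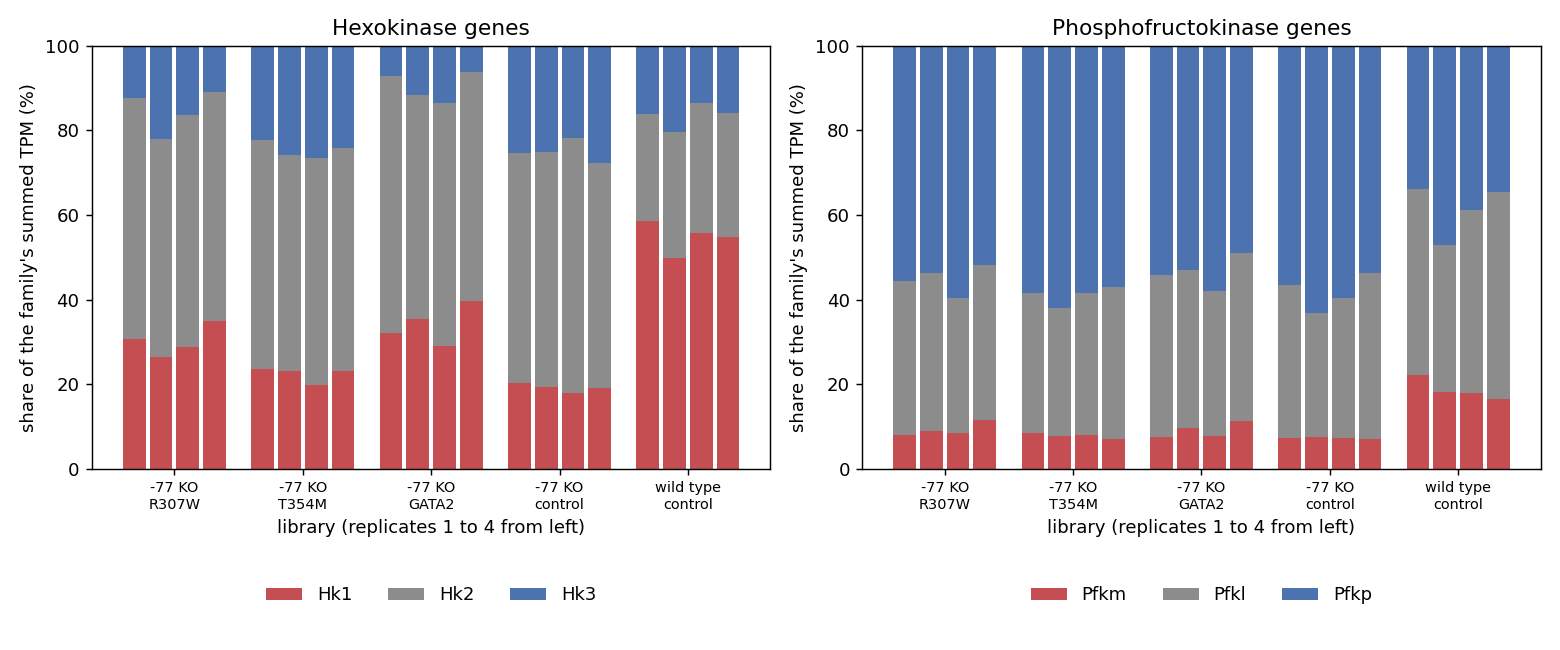
Share of the summed TPM (vertical axis, %) that each hexokinase gene (left) and each phosphofructokinase gene (right) took in each of the 20 libraries; each bar is 1 library and the 4 bars of a group are replicates 1 to 4. Hk1 took 17.8 to 20.2% in KO control and 49.8 to 58.5% in WT control, with KO + GATA2 between them at 29.1 to 39.7%.

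In lower glycolysis 2 of 5 genes rose. Pkm, pyruvate kinase, was at 982, 920, 959 and 1080 CPM in KO control, against 559, 604, 675 and 704 CPM in WT control (0.63 ± 0.11, edgeR adjusted p = 0.000109). Pgam1, phosphoglycerate mutase, was at 474, 502, 467 and 458 CPM in KO control, against 280, 339, 355 and 309 CPM in WT control (0.57 ± 0.12, edgeR adjusted p = 0.00061). Neither pair of groups overlapped. Gapdh was at 385, 387, 392 and 416 CPM in KO control and 401, 332, 431 and 443 CPM in WT control. Pgk1, phosphoglycerate kinase, was at 628, 634, 588 and 538 CPM in KO control and at 447, 691, 922 and 686 CPM in WT control. Gapdh, Pgk1 and Eno1 had differences of -0.03 ± 0.09, -0.20 ± 0.20 and -0.05 ± 0.14 and were not called. The WT libraries spread more widely than the KO libraries for each of these. Stretches near-identical to Gapdh are in 150 other genes, 142 of them pseudogenes. Together these genes held 4.50 to 8.08% of the summed counts, the largest part in Peli2, a protein-coding gene.

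Of the genes that act on pyruvate, 1 was called. Pdk1, a HIF-induced kinase that shuts off pyruvate dehydrogenase, averaged 75.2 ± 5.84 CPM in KO control and 149 ± 34.5 CPM in WT control (-0.99 ± 0.23, edgeR adjusted p = 0.00153). Its relative Pdk3 differed by 0.07 ± 0.11. Ldha, the main lactate dehydrogenase, was at 616, 590, 569 and 569 CPM in KO control and 579, 585, 805 and 686 CPM in WT control, and Ldhb at 3.31, 2.39, 2.27 and 3.77 CPM in KO control and 2.96, 3.14, 1.74 and 1.91 CPM in WT control; neither was called.

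Other genes of these pathways moved in both directions. Of 6 glucose and lactate carriers, 2 rose and 3 fell; Slc2a6 averaged 15.4 CPM in KO control and 4.61 CPM in WT control, and Slc2a3, the glucose carrier GLUT3, 62.3 and 212 CPM in the same order. Of 19 other glycolysis genes tested, 2 rose and 8 fell, among them Pklr, the pyruvate kinase of liver and red cells, at 4.57 CPM in KO control and 114 CPM in WT control (-4.63 ± 0.37, edgeR adjusted p = 1.69e-08). Of 28 other hypoxia response genes tested, 3 rose and 13 fell, with a median of -0.45; Hif3a was at 4.37 CPM in KO control and 32.8 CPM in WT control. In the pentose phosphate pathway 1 of 7 rose and 1 fell, and in pyruvate entry and the citric acid cycle 6 of 26 rose and 6 fell, led by Pcx, pyruvate carboxylase, at 2.19 CPM in KO control and 19.4 CPM in WT control. Of 7 integrated stress response genes 4 fell, including Asns, asparagine synthetase.

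Cell-type markers differed between these groups over whole lists. All 9 erythroid genes were called lower, with sums of 541 to 744 CPM in KO control and 2820 to 4260 CPM in WT control. All 8 mast cell and basophil genes were lower (37.3 to 48.7 against 608 to 844 CPM; Tpsb2 was at 0 in every KO control library), as were all 7 eosinophil genes (7.71 to 13.8 against 621 to 1000 CPM) and 5 of 9 neutrophil genes (3850 to 5160 against 8290 to 17600 CPM). All 8 monocyte and macrophage genes were higher (1630 to 1700 against 279 to 454 CPM), as were all 7 dendritic cell genes (343 to 510 against 40.2 to 54.3 CPM), whereas the 5 progenitor genes were split, with Cd34, Ptprc and Cd48 higher and Kit and Myb lower (1320 to 1450 against 652 to 868 CPM in sum). Of 7 endothelial and stromal genes 3 were higher (73.4 to 107 against 65.1 to 75.0 CPM in sum). The part of these cell types in the differences of the 32 genes was not tested.

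Without replicate 1 of all groups the count was again 18, but Epas1 and Gpi1 were no longer called and P4ha1 and Pgk1 were. Without replicate 4 of all groups it was 13, with Bnip3, Aldoc, Epas1, Pfkl and Tpi1 no longer called (adjusted p 0.0554 to 0.096). It ran from 15 to 19 when 1 library was left out. Over all genes the calls were 6859 in the main fit, 5895 without replicate 1 and 5860 without replicate 4. With 1 library left out they ran from 6256 to 6916. Single libraries ended the calls of Gpi1 (KO replicate 3, WT replicates 3 and 4), Pfkl (KO replicates 2 and 3, WT replicates 3 and 4) and Tpi1 (WT replicate 3), with adjusted p in the 8 such fits of 0.0116 to 0.099, 0.00152 to 0.113 and 0.00395 to 0.0576 for these genes.

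**Figure D2:**
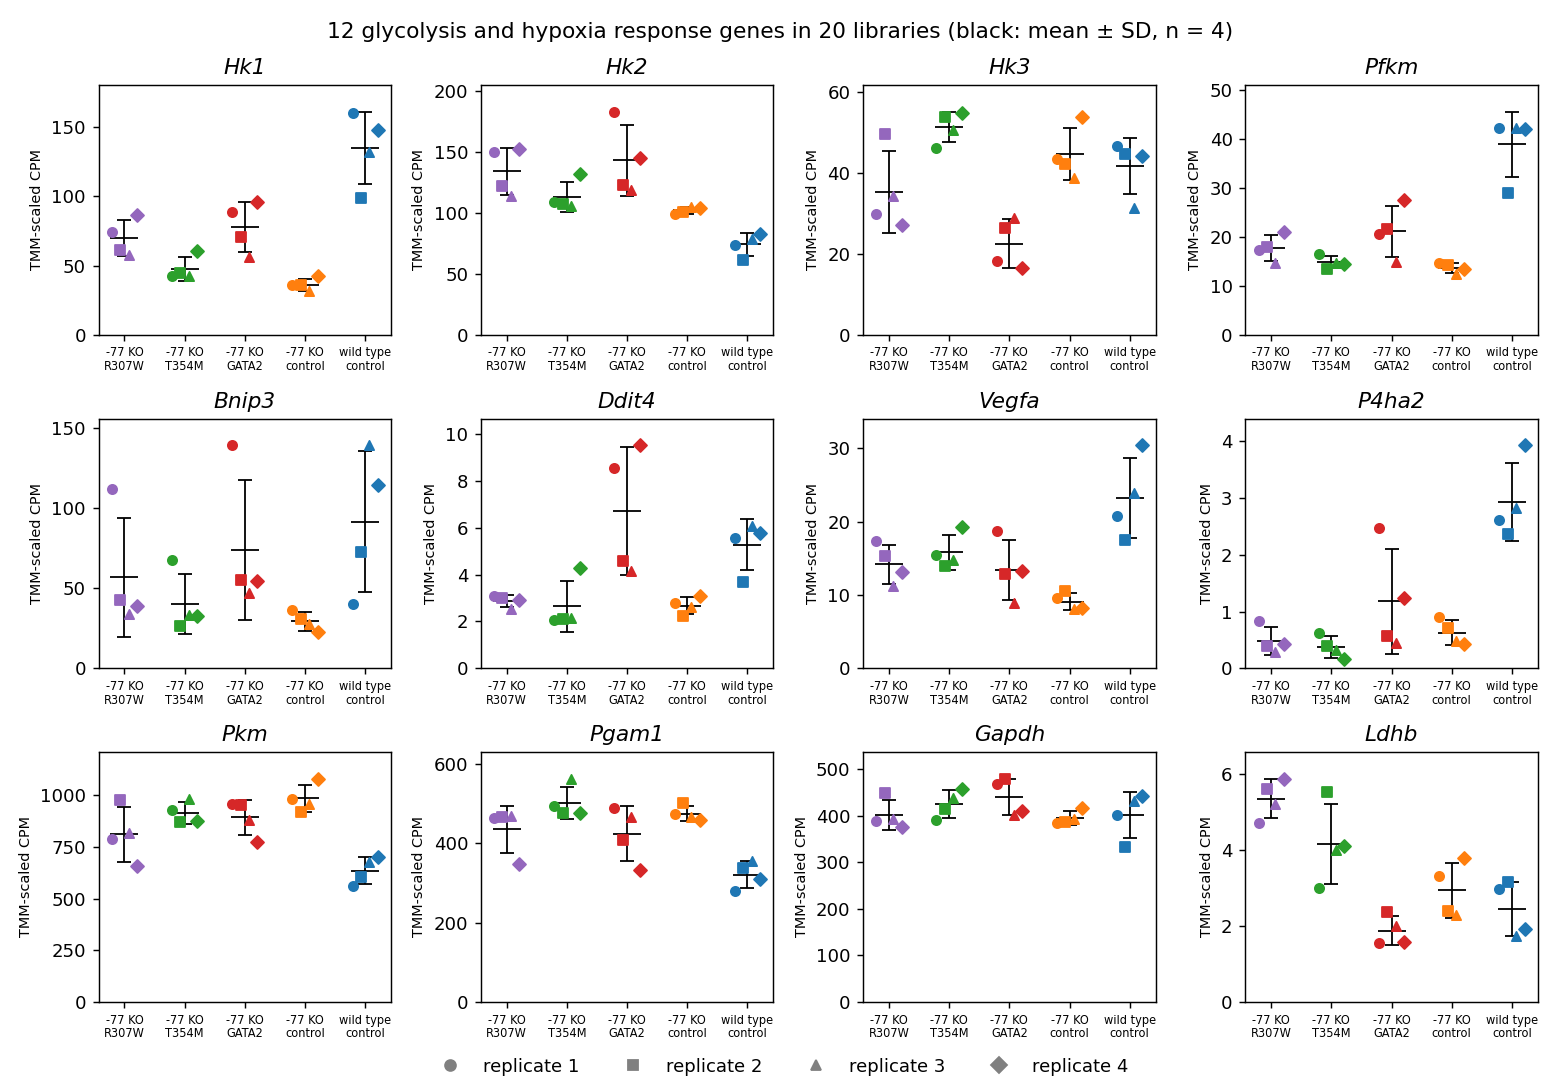
TMM-scaled CPM (vertical axes, linear, from 0) of 12 of the genes in each library of the 5 groups, with the mean ± SD of 4 libraries in black and the replicate number as the marker shape. Hk1 and Pfkm were lower in every KO library than in every WT control library, Pkm and Pgam1 were higher in KO control than in WT control, and Bnip3 replicate 1 stood at 112, 67.7 and 139 CPM above the other R307W, T354M and GATA2 libraries.

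Return of GATA2 was examined in KO + GATA2 against KO control. Of the 32 genes, 10 were called higher, against 11.0% of all genes tested, and 2 lower, against 8.23%. The median log2 difference was 0.41, against 0.00 over all genes. Of the 10 genes that rose, 7 belong to upper glycolysis and 2 to the genes listed as other HIF targets.

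Aldoc had the largest difference, with 11.1, 5.71, 2.44 and 6.65 CPM in KO + GATA2 against 2.03, 1.38, 1.53 and 1.39 CPM in KO control (2.03 ± 0.44, edgeR adjusted p = 0.00328). Hk1 was at 88.8, 70.6, 56.1 and 95.7 CPM with GATA2, against 35.7, 35.6, 31.8 and 42.2 CPM in KO control (1.10 ± 0.18, edgeR adjusted p = 0.000326). All GATA2 libraries were above all KO control libraries for both genes, and Hk1 stayed below WT control (-0.79 ± 0.18, edgeR adjusted p = 0.00208). Hk2 was at 183, 123, 119 and 145 CPM with GATA2 against 99.2 to 105 CPM in KO control (0.48 ± 0.13, edgeR adjusted p = 0.0143), so it was farther from WT control with GATA2 than without (0.94 ± 0.13 against WT control, edgeR adjusted p = 1.98e-05). Hk3 fell, with 18.3, 26.3, 28.9 and 16.5 CPM with GATA2 against 43.5, 42.2, 38.8 and 53.8 CPM in KO control (-0.99 ± 0.19, edgeR adjusted p = 0.00158). Hk3 then took 9.61 ± 3.55% of hexokinase TPM with GATA2 and 25.1 ± 2.45% in KO control, while Hk1 took 34.1 ± 4.55% and 19.1 ± 1.02% in the same order of groups.

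Pfkm was at 20.5, 21.6, 14.8 and 27.5 CPM with GATA2 against 14.7, 14.2, 12.4 and 13.4 CPM in KO control (0.63 ± 0.16, edgeR adjusted p = 0.0107). The lowest GATA2 library, 14.8 CPM, was only just above the highest KO control library. Pfkfb4, a bifunctional enzyme that makes and breaks down fructose 2,6-bisphosphate, fell, with 17.3, 20.2, 18.5 and 13.8 CPM with GATA2 against 25.6, 24.5, 24.5 and 28.8 CPM in KO control (-0.57 ± 0.14, edgeR adjusted p = 0.00729). 3 further enzymes of the upper pathway rose with GATA2. Gpi1 was at 528, 437, 355 and 433 CPM with GATA2 against 313, 321, 302 and 346 CPM in KO control (0.45 ± 0.13, edgeR adjusted p = 0.0179). Tpi1, which interconverts the triose phosphates, was at 491, 407, 322 and 391 CPM with GATA2 against 305, 287, 264 and 274 CPM in KO control (0.51 ± 0.14, edgeR adjusted p = 0.0165). Both were without overlap, while Aldoa, at 830, 666, 545 and 692 CPM with GATA2 against 516, 501, 485 and 570 CPM in KO control, overlapped through GATA2 replicate 3 (0.40 ± 0.14, edgeR adjusted p = 0.0465).

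Of the genes listed as other HIF targets, Ddit4 was at 8.56, 4.60, 4.16 and 9.53 CPM with GATA2, against 2.78, 2.22, 2.62 and 3.09 CPM in KO control (1.32 ± 0.28, edgeR adjusted p = 0.00277). Bnip3 was at 139, 55.2, 47.2 and 54.1 CPM with GATA2, against 36.3, 30.7, 27.5 and 22.6 CPM in KO control (1.33 ± 0.45, edgeR adjusted p = 0.0423). Neither overlapped, but replicate 1 was far above the other GATA2 libraries for Bnip3. P4ha2, at 2.47, 0.571, 0.450 and 1.23 CPM with GATA2, had a difference of 0.91 ± 0.47 and was not called, nor was Vegfa, at 18.7, 12.8, 8.92 and 13.2 CPM with GATA2 (0.56 ± 0.20, edgeR adjusted p = 0.0583). Ldha, the remaining gene called, was at 1050, 846, 719 and 886 CPM with GATA2 against 616, 590, 569 and 569 CPM in KO control (0.58 ± 0.13, edgeR adjusted p = 0.00459).

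The other 20 genes were not called. Hif1a was at 148, 149, 153 and 157 CPM and Epas1 at 0.609, 0.609, 0.412 and 0.514 CPM with GATA2. Among lower glycolytic genes, Gapdh was at 467, 479, 402 and 410 CPM, Pgk1 at 1120, 742, 690 and 628 CPM, Pkm at 959, 955, 881 and 775 CPM and Pgam1 at 490, 409, 467 and 333 CPM with GATA2. All 4 overlapped KO control. Pkm and Pgam1 thereby remained higher than in WT control, by 0.49 ± 0.11 and 0.40 ± 0.12 (edgeR adjusted p = 0.00186 and 0.0123).

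Outside the 32 genes, 2 of 6 carriers rose and 1 fell. Slc16a3, the lactate exporter MCT4, averaged 63.2 CPM with GATA2 and 21.9 CPM in KO control (1.53 ± 0.30, edgeR adjusted p = 0.00176), and Slc2a3 averaged 126 and 62.3 CPM in the same order. Of 28 other hypoxia response genes 7 rose and 2 fell; Ero1l, an oxidase of protein folding, averaged 605 CPM with GATA2 and 208 CPM in KO control, and Rora 45.2 and 5.61 CPM. Of 19 other glycolysis genes 5 rose and 1 fell, including Pklr at 16.5 CPM with GATA2 and 4.57 CPM in KO control. In the pentose phosphate pathway 1 of 7 rose and 1 fell, in pyruvate entry and the citric acid cycle 2 of 26 rose and 1 fell, and of the integrated stress response genes 1 of 7 rose.

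Markers again moved with the groups. All 8 mast cell and basophil genes were called higher (1320 to 4310 CPM in sum with GATA2 against 37.3 to 48.7 CPM in KO control), as were all 7 eosinophil genes (1800 to 3170 against 7.71 to 13.8 CPM) and 5 of 9 erythroid genes, with 1 lower (734 to 1100 against 541 to 744 CPM). Monocyte and macrophage genes were lower for 6 of 8 (562 to 1190 against 1630 to 1700 CPM), neutrophil genes for 6 of 9 (2890 to 4160 against 3850 to 5160 CPM) and dendritic cell genes for 7 of 7 (82.7 to 255 against 343 to 510 CPM). Of 7 endothelial and stromal genes 1 was higher and 5 lower, and of 5 progenitor genes 1 was higher and 1 lower. Their part in the results was not tested.

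Without replicate 1 of all groups, a setting chosen after the data were seen, 5 of the 12 calls were left, namely Bnip3, Hk1, Aldoc, Ldha and Hk3. Leaving out only replicate 1 of KO + GATA2 gave 7 calls. Over all genes, calls also fell, from 3042 to 1141 without replicate 1 of all groups. With 1 library left out the all-gene count ran from 1574 to 3393. Single libraries ended the calls of Aldoa (any of the 8 but GATA2 replicate 3), Bnip3 (GATA2 replicates 1 and 4 and each KO control library), Gpi1 (GATA2 replicate 1, KO control replicate 3), Hk2 and Tpi1 (GATA2 replicate 1) and Pfkm (GATA2 replicate 4). In those 8 fits adjusted p ran from 0.0144 to 0.165 for Aldoa, 0.0278 to 0.201 for Bnip3, 0.00491 to 0.0727 for Gpi1, 0.00521 to 0.0615 for Hk2, 0.00516 to 0.0667 for Tpi1 and 0.00101 to 0.0603 for Pfkm, and the Bnip3 difference was 0.84 without GATA2 replicate 1. With the replicate number as a block in the 16 enhancer-null libraries the count was 22, of which 19 were higher. The 12 calls remained, and Hif1a, Bnip3l, Vegfa, P4ha1, Ankrd37, Pfkl, Pfkp, Pgk1 and Pdk3 were called higher and Ldhb lower.

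**Figure D3:**
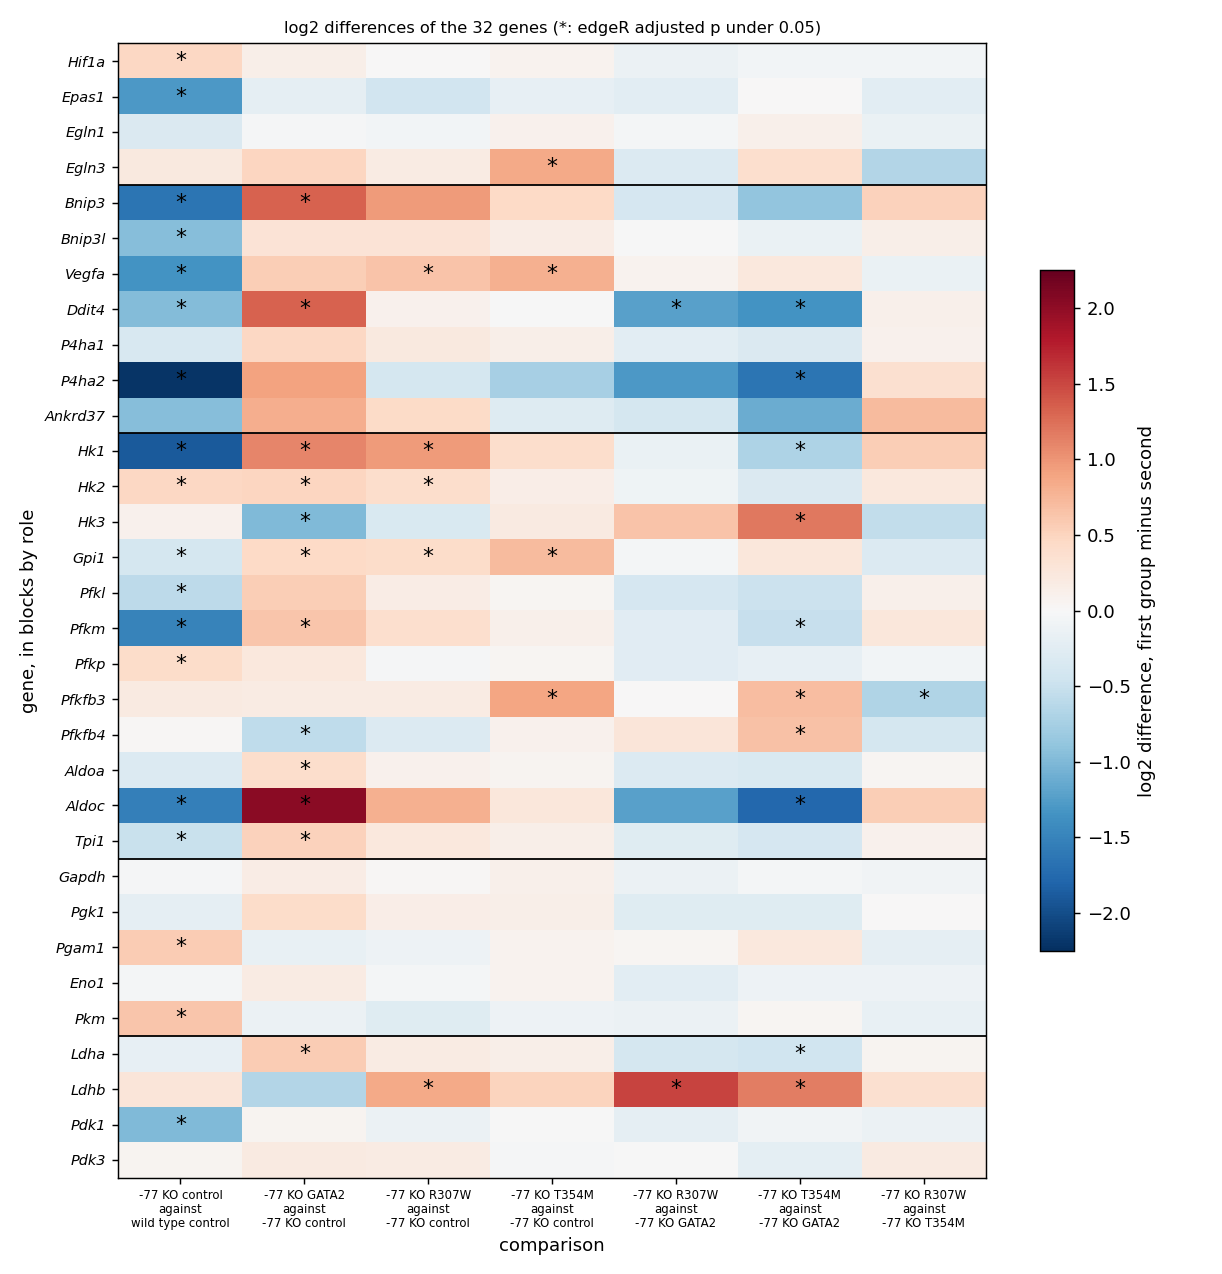
log2 differences of the 32 genes (rows, in blocks by role) in 7 comparisons (columns, the first-named group minus the second), with red for higher and blue for lower in the first-named group and an asterisk for an adjusted p under 0.05. Enhancer loss gave 18 calls, 13 of them blue, GATA2 gave 12, 10 of them red, and R307W against GATA2 gave 2.

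Each variant was next set against KO control. With R307W, 5 of the 32 genes were called higher, against 10.0% of all genes, and 0 lower, against 7.48% of all genes; 2 were lower at an unadjusted p under 0.05, and at an adjusted p 1 was called lower by DESeq2 and 0 by limma. With T354M, 4 were higher, against 9.26%, and 0 lower, against 8.11%; 0 were lower at an unadjusted p under 0.05 or at an adjusted p by DESeq2 or limma. The median differences were 0.18 and 0.11, against 0.02 over all genes for both. Of all genes called with R307W 57.3% were higher, and 67.4% with limma on log2(TPM + 0.1). These 2 comparisons and that of GATA2 share the KO control libraries.

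Hk1 rose with R307W, to 74.1, 61.5, 58.0 and 86.9 CPM against 31.8 to 42.2 CPM in KO control (0.95 ± 0.18, edgeR adjusted p = 0.00135). With T354M it was at 42.6, 44.9, 42.8 and 60.7 CPM, all above the KO control libraries, but was not called (0.40 ± 0.18, edgeR adjusted p = 0.139). Hk2 was at 150, 122, 114 and 152 CPM with R307W and was called higher (0.40 ± 0.13, edgeR adjusted p = 0.0414), and at 109, 107, 106 and 132 CPM with T354M. Hk3 was at 29.8, 49.7, 34.2 and 27.0 CPM with R307W and at 46.2, 53.7, 50.6 and 54.7 CPM with T354M, without a call for either. The Hk1 share of hexokinase TPM was 30.2 ± 3.62% with R307W, 22.4 ± 1.77% with T354M and 19.1 ± 1.02% in KO control.

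Vegfa rose with both variants, to 14.2 ± 2.65 CPM with R307W (0.65 ± 0.20, edgeR adjusted p = 0.034) and 15.8 ± 2.37 CPM with T354M (0.80 ± 0.20, edgeR adjusted p = 0.0109), against 9.08 ± 1.16 CPM in KO control. Gpi1, glucose phosphate isomerase, was also called for both, at 426 ± 37.8 CPM with R307W and 523 ± 88.2 CPM with T354M against 321 ± 18.4 CPM in KO control. Ldhb, the lactate dehydrogenase subunit of heart, rose with R307W, to 4.70, 5.59, 5.20 and 5.86 CPM, against 3.31, 2.39, 2.27 and 3.77 CPM in KO control (0.86 ± 0.23, edgeR adjusted p = 0.0155). Pfkfb3, the main kinase that raises fructose 2,6-bisphosphate, rose with T354M, to 65.6, 46.7, 52.1 and 66.3 CPM, against 31.9, 30.1, 30.1 and 33.6 CPM in KO control (0.88 ± 0.12, edgeR adjusted p = 3.96e-05). Egln3, a prolyl hydroxylase that HIF itself induces, was at 53.8, 38.6, 50.9 and 42.9 CPM with T354M, against 26.3, 27.3, 25.6 and 23.7 CPM in KO control (0.86 ± 0.29, edgeR adjusted p = 0.0462). The T354M libraries were above all KO control libraries for Pfkfb3 and Egln3.

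Markers moved in these comparisons too. Eosinophil genes were higher for 7 of 7 with both variants (1240 to 3140 CPM in sum with R307W and 1010 to 5630 CPM with T354M, against 7.71 to 13.8 CPM in KO control), and mast cell and basophil genes for 7 of 8 with R307W and 5 of 8 with T354M (507 to 1060 and 422 to 1510 against 37.3 to 48.7 CPM). Dendritic cell genes were lower for 7 of 7 (70.9 to 209 and 80.1 to 212 against 343 to 510 CPM) and monocyte and macrophage genes for 6 of 8 (520 to 1110 and 346 to 1140 against 1630 to 1700 CPM) with both. Of 9 erythroid genes 5 were higher and 2 lower with R307W, and 1 was higher and 4 lower with T354M (708 to 1160 and 526 to 663 against 541 to 744 CPM). Of 9 neutrophil genes 1 was higher and 3 lower with R307W, and 3 were higher with T354M (4200 to 6420 and 7120 to 9180 against 3850 to 5160 CPM). Of 7 endothelial and stromal genes 1 was higher and 4 lower with each variant. Of 5 progenitor genes 1 was higher and 1 lower with R307W, and 2 were higher and 1 lower with T354M. Their part in the results was not tested.

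The R307W count was 1 without replicate 1 of all groups, when Hk1 was left, and 1 to 6 when 1 library was left out. The 6 calls were made without R307W replicate 2, when 3 genes were higher and Hk3, Pfkfb4 and Pkm were called lower. It was 3 or less without any of KO control replicates 1 to 4 or R307W replicates 1 and 4. For Vegfa adjusted p ran from 0.0248 to 0.103 in these fits, with the call ended by KO control replicates 1, 3 and 4 and R307W replicates 1, 2 and 4. For Hk2 it ran from 0.0262 to 0.151 (each KO control library, R307W replicates 1 and 4), for Gpi1 from 0.025 to 0.0982 (KO control replicates 1 to 3, R307W replicates 1, 2 and 4) and for Ldhb from 0.015 to 0.0543 (KO control replicate 3, R307W replicate 4). The T354M count was 4 without replicate 1 of all groups and 2 without T354M replicate 4. Over all genes, leaving out replicate 1 took the calls from 2773 to 903 with R307W and from 2751 to 970 with T354M. With 1 library left out the all-gene counts were 1276 to 2976 and 1401 to 3074 in the same order. For Egln3 adjusted p ran from 0.0444 to 0.114 (any of the 8 but T354M replicate 2), and for Vegfa from 0.0118 to 0.055 (T354M replicate 4).

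The variants were then compared with GATA2 itself. For R307W, 1 gene was higher, against 0.587% of all genes, and 1 lower, against 1.14%. Ldhb was at 4.70, 5.59, 5.20 and 5.86 CPM with R307W, against 1.54, 2.36, 1.99 and 1.58 CPM with GATA2 (1.52 ± 0.24, edgeR adjusted p = 0.00145). Ddit4 was at 3.08, 3.01, 2.52 and 2.90 CPM with R307W, against 8.56, 4.60, 4.16 and 9.53 CPM with GATA2 (-1.22 ± 0.28, edgeR adjusted p = 0.025). The groups did not overlap for either gene. The Ddit4 call ended without GATA2 replicate 1 or 4 or any of the R307W libraries, each of which left a count of 1, with adjusted p from 0.0066 to 0.139; it also ended without replicate 1 of all groups. With the replicate block in the 16 enhancer-null libraries 4 genes were called, Aldoc and Ldha being lower with R307W in addition. A difference that was not called is not shown to be absent: for Hk3, at 35.2 ± 10.1 CPM with R307W and 22.5 ± 6.05 CPM with GATA2, the groups overlapped.

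For T354M against GATA2, 4 genes were higher, against 3.86% of all genes, and 6 lower, against 6.14%. Hk3 was at 46.2, 53.7, 50.6 and 54.7 CPM with T354M, against 18.3, 26.3, 28.9 and 16.5 CPM with GATA2 (1.19 ± 0.19, edgeR adjusted p = 0.000426). Pfkfb3 was at 65.6, 46.7, 52.1 and 66.3 CPM with T354M, against 40.3, 33.3, 34.6 and 34.5 CPM with GATA2 (0.69 ± 0.12, edgeR adjusted p = 0.000529). Both were without overlap, as was Ldhb at 3.00, 5.52, 4.00 and 4.09 CPM with T354M against 1.54, 2.36, 1.99 and 1.58 CPM with GATA2 (1.15 ± 0.24, edgeR adjusted p = 0.00298). Pfkfb4 was the fourth gene on the higher side, at 28.1, 30.9, 23.1 and 28.3 CPM with T354M against 13.8 to 20.2 CPM with GATA2 (0.66 ± 0.14, edgeR adjusted p = 0.00334).

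On the lower side, Ddit4 was at 2.06, 2.12, 2.13 and 4.28 CPM with T354M, against 8.56, 4.60, 4.16 and 9.53 CPM with GATA2 (-1.34 ± 0.28, edgeR adjusted p = 0.00332). T354M replicate 4 overlapped the GATA2 group. Hk1 was lower with T354M than with GATA2 (-0.70 ± 0.18, edgeR adjusted p = 0.014), with 60.7 CPM in the highest T354M library and 56.1 CPM in the lowest GATA2 library. Aldoc, P4ha2, Pfkm and Ldha were lower by log2 differences of -1.77, -1.65, -0.52 and -0.45, all with overlap between the groups. Single libraries ended the calls of Pfkm (any of the 8 but GATA2 replicate 3, adjusted p 0.00449 to 0.227), P4ha2 (GATA2 replicates 1 and 4, T354M replicates 2 to 4, 0.0108 to 0.224), Ldha (GATA2 replicates 1 and 4, T354M replicates 2 and 3, 0.00955 to 0.111) and Hk1 (GATA2 replicate 4, T354M replicate 1, 0.00275 to 0.0708). The count of 10 was 6 without GATA2 replicate 4 and 4 without replicate 1 of all groups, when Hk3, Pfkfb3 and Ldhb were higher and Bnip3 was lower. With the replicate block in the 16 libraries it was 18, with 4 higher and 14 lower; Bnip3, P4ha1, Ankrd37, Hk2, Pfkl, Aldoa, Tpi1 and Pdk3 were added on the lower side.

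Between the variants, R307W against T354M, 0 of the 32 genes were called higher, against 2.30% of all genes, and 1 lower, against 1.19%. At an unadjusted p under 0.05, 1 gene was higher by each of edgeR, DESeq2 and limma, and at an adjusted p DESeq2 and limma also called 0 higher. Pfkfb3 was at 40.2, 32.8, 34.0 and 36.7 CPM with R307W, against 65.6, 46.7, 52.1 and 66.3 CPM with T354M, without overlap (-0.68 ± 0.12, edgeR adjusted p = 0.00182). The count was 3 without R307W replicate 2, 2 without T354M replicate 4, and 2 without replicate 1 of all groups, when Egln3 was also lower. With the replicate block in the 16 libraries Hk1, Ankrd37 and Pdk3 were also called higher and Egln3 lower with R307W than with T354M, a count of 5. Gata2 itself was not called for either variant against GATA2 (edgeR adjusted p = 0.752 for R307W and 0.28 for T354M).

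Cell-type markers differed along with these comparisons. With R307W 5 of 8 mast cell and basophil genes were lower than with GATA2 (507 to 1060 against 1320 to 4310 CPM in sum). In that comparison 1 of 7 eosinophil genes was lower and 2 of 9 neutrophil genes were higher. With T354M 6 of 8 mast cell and basophil genes were lower than with GATA2 (422 to 1510 against 1320 to 4310 CPM), 5 of 9 erythroid genes were lower (526 to 663 against 734 to 1100 CPM) and 7 of 9 neutrophil genes were higher (7120 to 9180 against 2890 to 4160 CPM). There 1 of 7 eosinophil genes was higher and 2 were lower, and 1 of 5 progenitor genes was higher. With R307W 5 of 9 erythroid genes were higher than with T354M (708 to 1160 against 526 to 663 CPM) and 3 of 9 neutrophil genes were lower (4200 to 6420 against 7120 to 9180 CPM). Between the variants 3 of 7 eosinophil genes were higher and 1 lower with R307W. Of 8 mast cell and basophil genes 2 were higher and 1 lower. Their part in the results was not tested.

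Against WT control, each vector group kept called differences in both directions. With R307W 15 of the 32 genes were called in either direction, against 33.5% of all genes. With T354M 19 were called, against 37.0%, and with GATA2 16, against 30.7%. Of all called genes 49.2, 50.2 and 48.0% were higher with R307W, T354M and GATA2, and 64.2, 64.2 and 59.1% with limma on log2(TPM + 0.1). Hif1a, Hk2, Pfkp, Pfkfb3, Pgam1 and Pkm were higher than in WT control with all 3 vectors, and Epas1, Bnip3l, Vegfa, P4ha2, Hk1, Pfkm and Pdk1 were lower with all 3. Pdk1, for example, averaged 68.4 ± 22.6 CPM with R307W, 74.7 ± 14.6 CPM with T354M and 78.9 ± 23.0 CPM with GATA2, against 149 ± 34.5 CPM in WT control. These 3 comparisons share the WT control libraries. Without replicate 1 of all groups 15 genes were called with R307W, 19 with T354M and 14 with GATA2; of the genes just named, Pfkp, Pfkfb3, Pgam1 and Pkm were then not called with R307W, Vegfa not with T354M, and Pgam1 and Pfkfb3 were not called with GATA2. Single libraries ended calls of P4ha2 and Ldha with GATA2, of Vegfa, Ddit4, Pfkp and Pkm with R307W, and of Bnip3, Vegfa, Pfkl, Aldoc and Ldhb with T354M; the total counts then ran from 13 to 17 with R307W, 15 to 20 with T354M and 15 to 17 with GATA2. Fewer erythroid transcripts accompanied them: sums were 708 to 1160, 526 to 663 and 734 to 1100 CPM with R307W, T354M and GATA2, against 2820 to 4260 CPM in WT control, with all 9 genes called lower each time. Other markers moved as well. Dendritic cell genes were higher for 7 of 7 with each vector (70.9 to 209, 80.1 to 212 and 82.7 to 255 CPM with R307W, T354M and GATA2, against 40.2 to 54.3 CPM in WT control), monocyte and macrophage genes for 5 of 8 (520 to 1110, 346 to 1140 and 562 to 1190 against 279 to 454 CPM) and progenitor genes for 4 of 5 (1260 to 1370, 1380 to 1490 and 1050 to 1310 against 652 to 868 CPM), with 1 progenitor gene lower with R307W. Neutrophil genes were lower for 5, 5 and 6 of 9 and higher for 1, 3 and 1 (4200 to 6420, 7120 to 9180 and 2890 to 4160 against 8290 to 17600 CPM). Eosinophil genes were higher for 5, 4 and 4 of 7 and lower for 1, 2 and 0 (1240 to 3140, 1010 to 5630 and 1800 to 3170 against 621 to 1000 CPM). Mast cell and basophil genes were higher for 1, 0 and 6 of 8 and lower for 3, 3 and 0 (507 to 1060, 422 to 1510 and 1320 to 4310 against 608 to 844 CPM). Of 7 hepatocyte genes 3 were lower with R307W. Of 7 endothelial and stromal genes 1 was higher with each vector, and 1 was lower with R307W and with GATA2. The part of these cell types in the results was not tested.

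Within groups, the hypoxia-responsive genes varied between libraries more than the group means alone show. Replicate 1 was the highest library for 20 of the 32 genes with R307W, 15 with T354M, 24 with GATA2, 9 in KO control and 3 in WT control. Over all tested genes replicate 1 was highest for 26.7, 24.7, 22.2, 21.8 and 24.8% in these groups. Bnip3 stood at 112 CPM in R307W replicate 1 against 33.7 to 42.3 CPM in the other 3, at 67.7 CPM in T354M replicate 1 against 26.4 to 33.1 CPM, and at 139 CPM in GATA2 replicate 1 against 47.2 to 55.2 CPM. Ankrd37, a HIF target with an ankyrin repeat, stood at 7.69, 4.43, 9.74 and 3.84 CPM in replicate 1 of the R307W, T354M, GATA2 and KO control groups, each the highest of its group. In WT control the order was other. Replicate 1 was the lowest for 13 of the 32 genes and replicate 2 for 14, a count not made over all genes. Bnip3 was at 40.3 CPM in WT replicate 1 against 72.2 to 139 CPM in the other 3.

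Bnip3, P4ha1, P4ha2, Ankrd37, Tpi1, Ldha and Pdk1 were highest in replicate 1 in all 4 enhancer-null groups. Hk1, which had the lowest adjusted p of the 32 genes for KO against WT control, did not follow: its highest library was replicate 4 with each of the 3 vectors and in KO control, as was that of Gata2 (89.5, 73.8, 132 and 7.67 CPM with R307W, T354M and GATA2 and in KO control). Replicate 1 also had the highest hepatocyte marker sum in every group: 1190, 1590, 1420, 1920 and 3280 CPM with R307W, T354M and GATA2, in KO control and in WT control, where the other libraries had 164 to 1960 CPM. The part of these cells in the replicate differences was not tested. The labels give no batch or date.

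**Figure D4:**
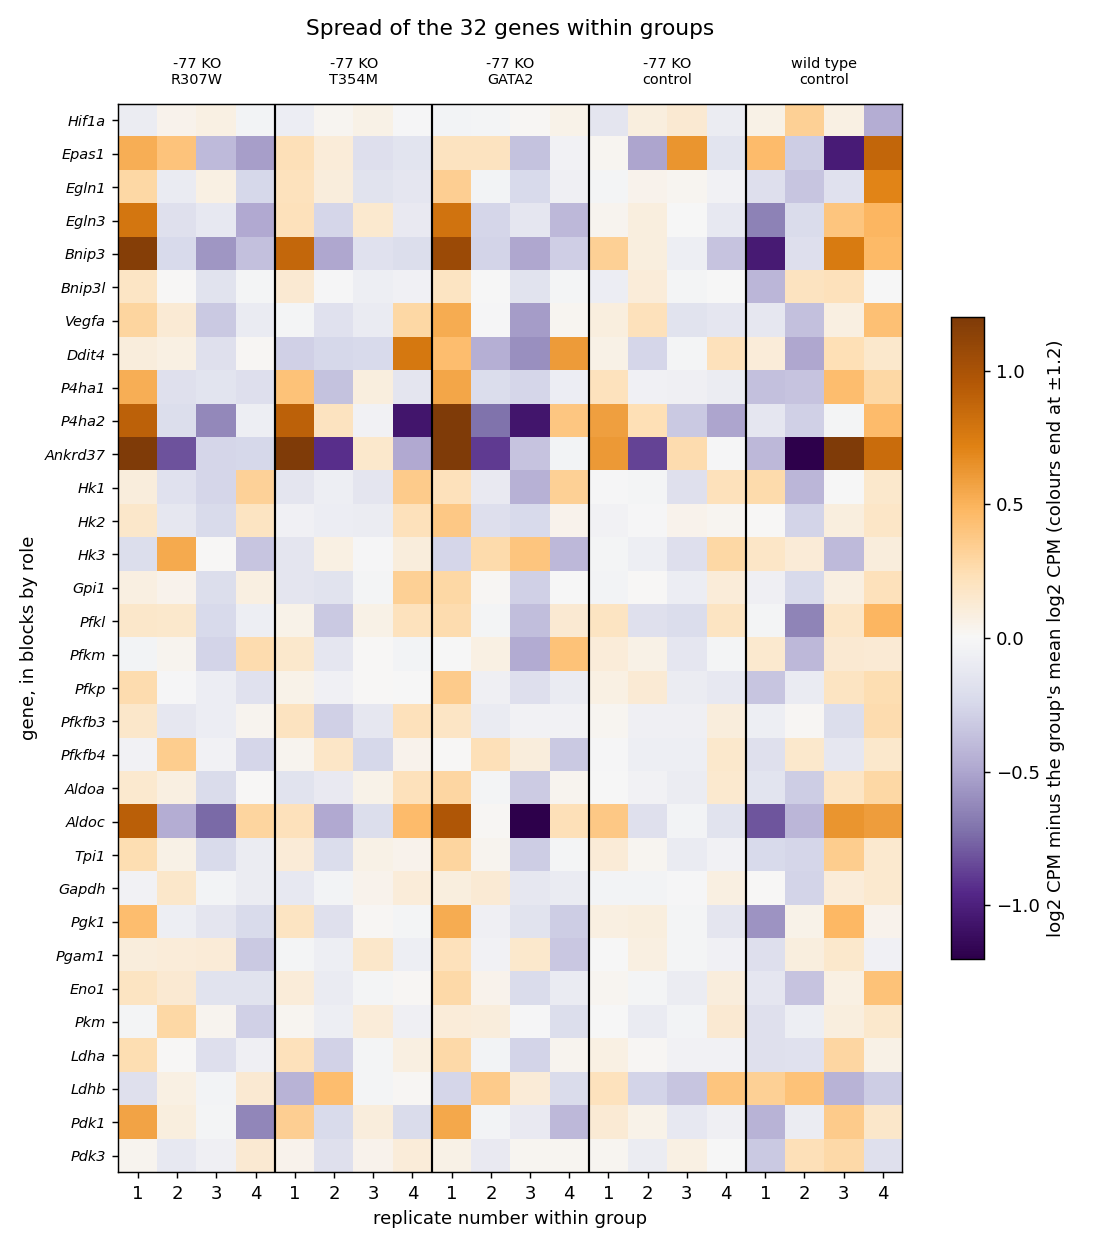
Deviation of each library (columns, replicates 1 to 4 in each of the 5 groups) from its group's mean log2 CPM for the 32 genes (rows, in blocks by role); orange to brown is above and purple below the mean, and colours end at 1.2 log2 units. Replicate 1 is above the mean for Bnip3, P4ha1, P4ha2 and Ankrd37 in the 4 enhancer-null groups, and for Bnip3 it is below the mean in WT control, where it had 40.3 CPM.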

How the data were processed

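RNA-seq gene tables of 20 libraries were used. Per the submitters' processing notes, the tools were STAR 2.5.2b and RSEM 1.3.0; the annotation and the use of strand are not given in the sources used here. The deposited expected counts are RSEM estimates that need not be whole and share reads among copies; they were rounded. The deposited TPM values are scaled per gene length by the authors, and the deposited FPKM values were not used. The 105 identifiers without a symbol held at most 0.0148% of counts.

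The 32 genes and the other lists were chosen with earlier results of these data known. Counts were TMM-scaled and filtered on low values, and 15835 genes were fitted with edgeR 4.0.16 (quasi-likelihood test, R 4.3.3) over all 5 groups, with Benjamini-Hochberg adjustment. Library totals of 22330475 to 33245876 leave little counting error for most of these genes; Epas1 rested on 8 to 67 counts and P4ha2 on 5 to 107 counts a library. Shares of TPM were compared by exact permutation tests. Genes were named by a rule: fixed genes, the 6 highest and 6 lowest called differences of enhancer loss and of GATA2, and the 4 lowest adjusted p of each comparison between vectors. Library values of Egln3, and examples such as Pdk1, fall outside it and were chosen after their values were seen. Alternatives were DESeq2 1.42.0, limma 3.58.1 on log2(TPM + 1) and log2(TPM + 0.1), other size factors, no filter, fewer libraries, a fold of at least 2, and the replicate number as a block. Comparisons were taken as paired where the lowest correlation between same-numbered libraries was over 0.1. It was 0.204 for KO + R307W against KO + T354M and 0.219 for KO + R307W against KO + GATA2. It was 0.159 for KO + T354M against KO + GATA2 and 0.124 for KO + GATA2 against KO control. The highest correlation between differently numbered libraries was 0.338, 0.221, 0.302 and 0.06 in the same order. Only in the last did it lie below the lowest same-number value. For R307W and T354M against KO control the lowest same-number value was 0.019 and 0.062, under this cut. The main fit used no block, so the main calls and p-values ignore this pairing. Stretches shared with other genes were searched by sequence at 95% identity or more, and no minimum share of the transcript was required. All counts of a gene with such a stretch were summed, so the shares given can include reads from outside the stretch. The test was checked on simulated counts.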

Additional observations from a re-analysis of the deposited data

Results flagged for a closer look

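In 14 of 160 groups of 4 libraries, the highest or lowest library stood apart from the other 3 by Dixon's criterion. For independent, normally spread values about 1 in 20 would. The genes share the same libraries and the flagged share over all genes was not counted, so the 14 cannot be weighed against this rate. Replicate 1 was the high library in 7 of the 14. Bnip3 was at 112 CPM in KO + R307W replicate 1 (others 33.7 to 42.3), at 67.7 CPM in KO + T354M replicate 1 (others 26.4 to 33.1) and at 139 CPM in KO + GATA2 replicate 1 (others 47.2 to 55.2). P4ha1 was at 77.1 CPM in KO + R307W replicate 1 (others 47.0 to 48.3) and 54.2 CPM in KO control replicate 1 (others 44.1 to 45.2). Ankrd37 was at 7.69 CPM in KO + R307W replicate 1 (others 1.73 to 2.57), and Egln3 at 59.5 CPM in KO + GATA2 replicate 1 (others 25.7 to 31.0).

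Replicate 4 of KO + T354M was high for Ddit4, at 4.28 CPM (others 2.06 to 2.13), for Hk1, at 60.7 CPM (others 42.6 to 44.9), and for Hk2, at 132 CPM (others 106 to 109). That library also had the highest Gata2 level of its group, 73.8 CPM, and the highest eosinophil marker sum, 5630 CPM; their part was not tested. Pgam1 was low in KO + R307W replicate 4, at 347 CPM (others 463 to 468). In WT control, Egln1 was at 36.0 CPM in replicate 4 (others 17.4 to 19.5), Hk3 at 31.3 CPM in replicate 3 (others 44.2 to 46.6) and Pfkm at 28.9 CPM in replicate 2 (others 42.0 to 42.3).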

How the results depend on the processing

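No difference changed sign after being called, and 5855 of the gene-level values kept their side of the threshold, while 308 lost and 109 gained a call. Of the 32 genes, a fold of at least 2 left 7 calls for KO control against WT control (main 18), 0 for R307W and 0 for T354M against KO control (main 5 and 4), 4 for GATA2 against KO control (main 12), 5 for T354M against GATA2 (main 10), 0 for R307W against T354M (main 1), and 5, 8 and 2 for R307W, T354M and GATA2 against WT control (main 15, 19 and 16). Without replicate 4 of all groups the counts were 2, 2 and 7 for R307W, T354M and GATA2 against KO control and 1 for R307W against GATA2; without replicate 1, chosen after seeing the data, they were 1 and 5 for R307W and GATA2 against KO control, 1 and 4 for R307W and T354M against GATA2 and 2 for R307W against T354M. With limma, R307W against KO control had 1 call at either pseudocount and T354M against KO control 2 at log2(TPM + 1). Fits of only the 8 libraries compared gave 1 and 6 calls for R307W and T354M against GATA2. The replicate block in the 16 enhancer-null libraries gave 4 calls for R307W against GATA2 and 18 for T354M against GATA2. It gave 5 for R307W against T354M and 22 for GATA2 against KO control. In these 4 comparisons the numbers were taken to pair the libraries. For R307W against KO control it gave 10, with Pfkfb4 and Pkm lower. There the same-number correlation was 0.019 for replicate 2 and 0.199 to 0.311 for the others. With this block Hk1 was also called higher with T354M than in KO control (edgeR adjusted p 0.00727, and 0.0193 with the block in 20 libraries). In all 20 libraries the block gave 2 calls for R307W against T354M. Leaving out 1 library gave 15 to 19 calls for KO control against WT control, 1 to 6, 2 to 4 and 7 to 15 for R307W, T354M and GATA2 against KO control, 1 to 3 and 6 to 14 for R307W and T354M against GATA2, 1 to 3 for R307W against T354M, and 13 to 17, 15 to 20 and 15 to 17 for R307W, T354M and GATA2 against WT control. With expected counts in place of TPM, 0 shares passed the test, as in the main comparison. The same smallest p held in both, so this likeness says little of stability. Without replicate 1 or replicate 4 of all groups, 3 against 3 libraries have too few arrangements to pass an exact test at 0.05. A count of 0 there says nothing of stability. The causes were not tested.

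Over all genes, the replicate block in 16 libraries gave 5341, 4984 and 5258 calls for R307W, T354M and GATA2 against KO control (main 2773, 2751 and 3042), and leaving out replicate 1 gave 903, 970 and 1141. Between vectors, the block gave 637, 2893 and 1319 calls for R307W against GATA2, T354M against GATA2 and R307W against T354M (main 274, 1583 and 553), and leaving out replicate 1 gave 36, 726 and 131. Leaving out 1 library gave 126 to 376, 979 to 1679 and 282 to 573 calls in the same order. Against WT control it gave 4687 to 5343, 5193 to 5880 and 4278 to 5077 with R307W, T354M and GATA2. Without a filter the median of all genes for KO control against WT control was -0.176 (main -0.05), and with limma on log2(TPM + 0.1) it was 0.134 and 0.141 for R307W and T354M against WT control (main 0.01 and 0.02). A fold of at least 2 left 2972 calls over all genes for KO control against WT control (main 6859). It left 1143, 1046 and 1340 for R307W, T354M and GATA2 against KO control. Between vectors it left 185 and 728 for R307W and T354M against GATA2, and 309 for R307W against T354M. Against WT control it left 2313, 2405 and 2002 with R307W, T354M and GATA2. Depth limits Epas1 and P4ha2 most.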
